A study of Mus musculus with 8 samples.

Results

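Expression of 9 genes that mark the oligodendrocyte lineage, the cells that make myelin in the brain, was followed in mouse brain lacking the histone deacetylase Hdac3. The genes were chosen by symbol, with no threshold on their values, and run from precursor to myelin: Olig1, Olig2, Sox10, Pdgfra, Cspg4, Gpr17, Bcas1, Mbp and Cnp. All 9 had a value in both expression tables of the series, which together held 12537 genes. Dorsal cortex was taken from C57BL/6 mice at postnatal day 0 (P0), from Hdac3 knockout (KO) and wild-type (WT) brains. Neurospheres, balls of stem and progenitor cells that float in culture, were grown until day 4 from the cerebrum of C57BL/6 embryos at stage E16.5, again KO and WT. Each of these 4 groups had 2 libraries, which the series' design text ties to separate brains, made with a stranded kit from poly(A) RNA. The sample names and the authors' table for the cortex KO point to Cre expressed from Emx1, which acts in dorsal telencephalic progenitors and their progeny. Oligodendrocyte precursors that enter the cortex from ventral sources, and microglia, need not have lost Hdac3 in that tissue. For the neurospheres, no Cre driver was given in the sources used here.

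Oligodendrocytes arise from precursor cells that carry the PDGF receptor PDGFRα and the proteoglycan NG2 on their surface. Olig2 sets up the lineage, Olig1 and Sox10 drive maturation, and precursors that commit to differentiate switch on Gpr17 and Bcas1 before the myelin genes. Hdac3 supplies the deacetylase activity of the NCoR and SMRT corepressors, and histone deacetylases are known to take part in oligodendrocyte differentiation.

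The sequence just before the start of transcription is shown for Olig2, Pdgfra, Cspg4 and Cnp, the 4 members matched in the RefSeq promoter table. Olig2, Pdgfra and Cspg4 had both KO libraries below both WT libraries in neurospheres, as did 38.3% of all genes tested there. None of these members passed the threshold of 0.05 in neurospheres by limma-trend. Cnp was called higher in KO cortex, as were 4.8% of all genes tested there. The 250 bases come from RefSeq on GRCm38.p6, all on the plus strand: chr16:91225300-91225549 for Olig2, chr5:75152001-75152250 for Pdgfra, chr9:56864854-56865103 for Cspg4 and chr11:100574689-100574938 for Cnp. Capitals mark the E-box CANNTG, a core bound by helix-loop-helix factors such as the Olig proteins, and the Sox core ACAAAG, each searched on both strands.
Olig2: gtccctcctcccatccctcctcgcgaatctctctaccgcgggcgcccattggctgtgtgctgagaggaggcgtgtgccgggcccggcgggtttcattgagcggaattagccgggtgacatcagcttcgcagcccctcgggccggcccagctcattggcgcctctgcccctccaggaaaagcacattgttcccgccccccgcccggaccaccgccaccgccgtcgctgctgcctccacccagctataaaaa
Pdgfra: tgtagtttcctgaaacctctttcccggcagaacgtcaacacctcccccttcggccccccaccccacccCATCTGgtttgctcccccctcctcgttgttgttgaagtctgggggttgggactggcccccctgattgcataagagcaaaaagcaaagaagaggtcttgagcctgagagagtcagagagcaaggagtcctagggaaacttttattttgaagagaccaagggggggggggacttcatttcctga
Cspg4: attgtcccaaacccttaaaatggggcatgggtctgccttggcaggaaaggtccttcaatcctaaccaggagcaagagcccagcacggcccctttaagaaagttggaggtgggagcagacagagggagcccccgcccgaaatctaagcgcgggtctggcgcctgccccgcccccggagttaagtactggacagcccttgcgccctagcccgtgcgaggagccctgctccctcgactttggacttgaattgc
Cnp: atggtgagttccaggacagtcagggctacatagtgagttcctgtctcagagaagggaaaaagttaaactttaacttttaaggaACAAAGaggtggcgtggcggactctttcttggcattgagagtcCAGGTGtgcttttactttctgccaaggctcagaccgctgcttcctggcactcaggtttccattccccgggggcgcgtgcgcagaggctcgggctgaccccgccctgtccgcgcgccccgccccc
The Olig2 and Cspg4 stretches held neither core, whereas Pdgfra held the E-box CATCTG at position -182 from the start site. Cnp held the E-box CAGGTG at position -124 and the Sox core at -167. Among 32851 promoter stretches of the same length, 66.22% held an E-box and 16.46% the Sox core, so a match here is only a description. The G and C content was 66.8% for Olig2, 54.4% for Pdgfra, 60.4% for Cspg4 and 57.2% for Cnp, against a median of 52.4% over all these stretches.

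Values are FPKM, fragments normalized to transcript length and library depth, given for KO 1 and KO 2 against WT 1 and WT 2 in cortex and for KO 7 and KO 8 against WT 5 and WT 6 in neurospheres. The widths of the deposited intervals implied 21500000 to 29400000 fragments per cortex library and 13600000 to 15100000 per neurosphere library, an estimate that puts the members on 141 to 2198 fragments in cortex and 163 to 4478 in neurospheres. Hdac3 itself measured 26.8 and 27.1 FPKM in KO cortex, against 48.1 and 46.1 FPKM in WT cortex (log2 fold change -0.78, adjusted p = 0.000319, limma-trend). It measured 18.03 and 20.5 FPKM in KO neurospheres, against 34.4 and 28.7 FPKM in WT neurospheres, where it did not pass (log2 fold change -0.68, adjusted p = 0.104, limma-trend). The values do not resolve the deleted part of the gene. Replicates correlated across genes at 0.995 (KO) and 0.996 (WT) in cortex, and at 0.967 (KO) and 0.976 (WT) in neurospheres. The cortex KO libraries differed from each other in the ribosomal transcript Rn45s, with 830.4 and 3438 FPKM against 289.3 and 265.8 FPKM in WT, and in the Y-linked Ddx3y, listed at 0 and 8.13 FPKM in KO and at 10.8 and 10.9 FPKM in WT.

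In KO cortex at birth, 5 of the 9 lineage genes rose and none fell. They were Bcas1 and Gpr17, which mark precursors that have committed to differentiate, the myelin genes Mbp and Cnp, and the transcription factor Sox10. The rises ran from 2.51 times WT for Bcas1 to 1.36 times WT for Cnp. Of these 5, Mbp alone was not called in the authors' deposited table, made from counts (log2 fold change 0.27, adjusted p = 0.148, DESeq2). Pdgfra and Cspg4, the surface proteins of the precursor, and Olig1 and Olig2 did not pass the threshold of 0.05. Across all 11988 genes tested in cortex, 4.8% were higher and 17.7% lower in KO by the same test, limma-trend on log2(FPKM + 1) with Benjamini-Hochberg adjustment over all genes. Among the 9 members, both KO libraries lay above both WT libraries in 7, an arrangement that 15.5% of all genes tested showed, and in 0 did both lie below, against 50.2% of all genes tested. The median log2 fold change was 0.39 over the members and -0.10 over all genes. In bulk tissue, more cells of a type and more RNA per cell cannot be told apart.

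**Figure D1:**
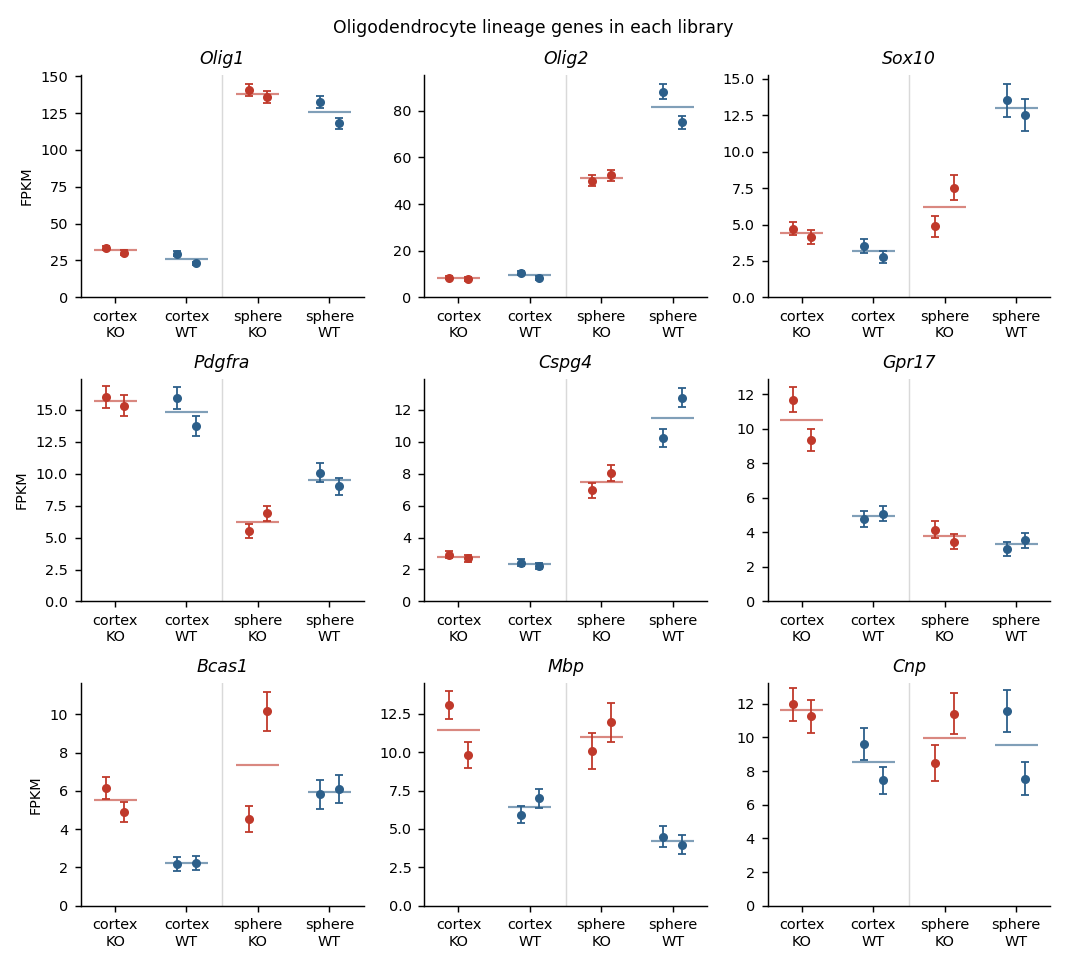
FPKM (vertical axes) of each lineage gene in every library of KO and WT cortex and KO and WT neurospheres; points are libraries with the authors' interval for each value, and lines are group means (n = 2). Gpr17 and Bcas1 sit higher in both KO cortex libraries than in WT cortex, and Olig2 and Sox10 sit lower in both KO neurosphere libraries than in WT neurospheres.

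Among the transcription factors in cortex, Sox10 measured 4.72 and 4.14 FPKM in KO and 3.55 and 2.76 FPKM in WT. Both KO libraries were above both WT libraries, and the groups averaged 4.43 ± 0.409 FPKM in KO and 3.15 ± 0.558 FPKM in WT (SD, n = 2 each). Its log2 fold change was 0.39 (SE 0.116, adjusted p = 0.0408, limma-trend). Olig1, a helix-loop-helix factor needed for maturation and repair, had 33.2 and 30.3 FPKM in KO cortex and 29.5 and 22.9 FPKM in WT cortex. Its groups did not overlap, but KO 2 lay close to WT 1, and it did not pass (log2 fold change 0.28, SE 0.109, adjusted p = 0.0945, limma-trend). Olig2, its neighbour on chromosome 16 and the factor that specifies the lineage, was the one member with a mean below WT, at 8.43 and 7.80 FPKM in KO cortex and 10.5 and 8.35 FPKM in WT cortex. KO 1 lay above WT 2, so its groups overlapped, and the log2 fold change was -0.19 (SE 0.109, adjusted p = 0.232, limma-trend).

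The receptor gene Pdgfra, through which PDGF keeps precursors dividing, had 16.0 and 15.3 FPKM in KO cortex and 15.9 and 13.7 FPKM in WT cortex. Its groups overlapped, and the log2 fold change was 0.08 with a 95% interval of -0.12 to 0.27 (adjusted p = 0.546, limma-trend). Cspg4, which encodes NG2, had 2.92 and 2.70 FPKM in KO cortex and 2.43 and 2.23 FPKM in WT cortex. Its KO libraries were both above its WT libraries by a small margin, with a log2 fold change of 0.20 and a 95% interval of -0.02 to 0.41 (adjusted p = 0.164, limma-trend). Pericytes also use Cspg4 and meningeal fibroblasts also use Pdgfra. Of 10 pericyte and endothelial markers 1 was higher and 0 were lower in KO cortex, and their summed level was 126.8 to 134.4 FPKM in KO and 114.5 to 116.7 FPKM in WT. The authors' deposited table called 3 of them higher in cortex, Vtn, Cdh5 and Pdgfrb, and 0 lower. Under the median ratio and under quantile normalization 4 were higher. Of 9 meningeal markers 7 were higher and 0 lower, beside 4.8% and 17.7% of all genes. Their sums were 378.3 to 423 FPKM in KO and 367.3 to 389.9 FPKM in WT. Their part in the values of Cspg4 and Pdgfra was not tested.

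Gpr17, an orphan receptor made for a short time by committed precursors, had 11.7 and 9.32 FPKM in KO cortex and 4.77 and 5.08 FPKM in WT cortex. Both KO libraries were well above both WT libraries, and the means were 10.5 ± 1.67 FPKM in KO and 4.93 ± 0.219 FPKM in WT (SD, n = 2 each), 2.13 times WT. Its log2 fold change was 0.95 (SE 0.109, adjusted p = 0.00134, limma-trend). Gpr17 overlaps Lims2 on the opposite strand. Whether strand was used in counting is not stated in the labels, so reads of this pair may not have been told apart. Lims2 was outside the FPKM tables, and the authors' deposited table gave it a log2 fold change of 1.05 in cortex (adjusted p = 9.15e-07).

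Bcas1, a protein of newly formed and early myelinating oligodendrocytes, had 6.17 and 4.91 FPKM in KO cortex and 2.20 and 2.22 FPKM in WT cortex. The WT libraries were almost equal, both KO libraries lay more than a doubling above them, and the ratio of the means was 2.51. The log2 fold change was 1.02 (SE 0.111, adjusted p = 0.00117, limma-trend). Antisense transcripts of Bcas1 overlap it on the opposite strand and were outside the FPKM tables.

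Mbp, myelin basic protein, had 13.1 and 9.82 FPKM in KO cortex and 5.93 and 6.98 FPKM in WT cortex. The groups did not overlap, and the log2 fold change was 0.73 (SE 0.129, adjusted p = 0.00641, limma-trend). The authors' deposited table, made from counts per gene, gave Mbp a log2 fold change of 0.27 in cortex (adjusted p = 0.148). Mbp has many transcripts of different length, among them the Golli forms that are also made outside the lineage, and FPKM divides by the length of the transcripts assigned to a gene. The fragments implied by the interval width per unit of FPKM were 0.679 times as many in KO as in WT for Mbp, a ratio below which only 0.175% of 10873 genes lay. Scaled to library depth alone, the implied fragments of Mbp gave a log2 fold change of 0.24 in cortex, against 0.73 in FPKM. For Gpr17 in cortex the ratio per unit of FPKM was 0.761. Its implied fragments, scaled in the same way, gave 0.67, against 0.95 in FPKM and 1.05 in the authors' deposited table. The cause of the gap for Mbp was not tested.

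Cnp, the myelin enzyme CNPase of early and mature oligodendrocytes, had 11.96 and 11.25 FPKM in KO cortex and 9.59 and 7.45 FPKM in WT cortex. Its groups did not overlap, and the log2 fold change was 0.41 (SE 0.111, adjusted p = 0.0292, limma-trend). Cnp overlaps Dnajc7 on the opposite strand, whose values were 83.7 and 83.6 FPKM in KO cortex and 85.6 and 85.2 FPKM in WT cortex (log2 fold change -0.03, adjusted p = 0.741, limma-trend).

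The rises of Gpr17, Bcas1 and Mbp in cortex passed the threshold whichever library was left out. Sox10 and Cnp missed it without WT 2, without KO 1 or without KO 2, Olig1 passed it without WT 1, and the difference in Pdgfra turned to -0.02 without WT 2. With the spread estimated over all 8 libraries of both tissues, 0 of the 9 members and 6 genes in all passed in cortex (limma-trend, with 6 members at an unadjusted p under 0.05 in the fit of cortex alone and 5 called in the authors' deposited table). That spread includes the neurospheres, whose replicates agreed less. Rescaling the libraries moved the median gene in cortex to 0.00 (median ratio) and -0.01 (quantile), and split the calls into 1131 higher and 934 lower (median ratio) or 983 higher and 941 lower (quantile), against 575 higher and 2124 lower as deposited. Under each rescaling 6 members were higher, with Olig1 added by the median ratio and Cspg4 by quantiles, and no member changed direction. The fits with a library left out and the rescalings start from the same FPKM. They therefore do not bear on the gap between FPKM and counts for Mbp.

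In KO neurospheres the members divided in another way. Mbp was the 1 member of 9 that rose, and 0 fell by the same test, against 0.219% of 11408 genes higher and 0.929% lower. Olig2, Sox10, Pdgfra and Cspg4 each had both KO libraries below both WT libraries, an arrangement shown by 38.3% of all genes tested, and none of the 4 passed the threshold. Olig1 and Mbp had both KO libraries above both WT libraries, which 14.6% of all genes showed, and Gpr17, Bcas1 and Cnp overlapped. The median log2 fold change was 0.06 over the members and -0.15 over all genes.

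Olig2 measured 50.02 and 52.4 FPKM in KO neurospheres, against 88.3 and 75.0 FPKM in WT neurospheres. Its KO libraries lay close together and well below both WT libraries, at 0.627 of the WT mean, and its log2 fold change was -0.66 (SE 0.151, adjusted p = 0.0973, limma-trend). Sox10 measured 4.89 and 7.54 FPKM in KO neurospheres, against 13.5 and 12.5 FPKM in WT neurospheres. Both KO values were below both WT values but apart from each other, and the log2 fold change was -0.98 (SE 0.224, adjusted p = 0.0965, limma-trend). Without KO 8, Sox10 passed the threshold. Olig1 was the most abundant member in every library, at 140.7 and 135.9 FPKM in KO neurospheres and 132.8 and 118.1 FPKM in WT neurospheres. KO 8 and WT 5 were close, and the log2 fold change was 0.14 with a 95% interval of -0.23 to 0.51 (adjusted p = 0.651, limma-trend).

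Pdgfra had 5.51 and 6.89 FPKM in KO neurospheres and 10.1 and 9.001 FPKM in WT neurospheres. The KO values were both lower, at 0.65 of the WT mean, and the log2 fold change was -0.55 (SE 0.197, adjusted p = 0.194, limma-trend). Cspg4 had 6.95 and 8.04 FPKM in KO neurospheres and 10.2 and 12.8 FPKM in WT neurospheres. It too was lower in both KO libraries, at 0.652 of the WT mean, and it did not pass either (log2 fold change -0.55, SE 0.193, adjusted p = 0.191, limma-trend). None of the 10 pericyte and endothelial markers was in the neurosphere FPKM table. Of 9 meningeal markers only Dcn and Ptgds were tested there, and both were higher in KO, with sums of 24.9 to 25.7 FPKM in KO and 7.96 to 9.60 FPKM in WT. The authors' deposited table lists 8 of the meningeal markers in neurospheres and called 5 higher and 0 lower, among them the collagen genes Col3a1 (log2 fold change 4.28), Col1a1 (3.28) and Col1a2 (0.74). Of the pericyte and endothelial markers the authors' deposited table lists 9 and called 1 higher, Pdgfrb (1.39), and 0 lower. Their part in the values of Pdgfra and Cspg4 in neurospheres was not tested.

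Gpr17 had 4.15 and 3.46 FPKM in KO neurospheres and 3.06 and 3.54 FPKM in WT neurospheres, a log2 fold change of 0.16 with a 95% interval of -0.36 to 0.68 (adjusted p = 0.725, limma-trend). Bcas1 had 4.51 and 10.2 FPKM in KO neurospheres and 5.82 and 6.10 FPKM in WT neurospheres. KO 7 lay below and KO 8 above both WT libraries, so its log2 fold change of 0.17 carried a 95% interval of -0.60 to 0.94 (adjusted p = 0.801, limma-trend). Mbp had 10.1 and 11.9 FPKM in KO neurospheres and 4.50 and 3.97 FPKM in WT neurospheres, far apart, with a ratio of the means of 2.60. Its log2 fold change was 1.19 (SE 0.196, adjusted p = 0.0471, limma-trend), and the authors' deposited table also called it higher. The implied fragments per unit of FPKM were 0.778 times as many in KO as in WT neurospheres for Mbp, a ratio below which 0.578% of 8990 genes lay, and the cause was not tested. Cnp, the other myelin gene, had 8.48 and 11.4 FPKM in KO neurospheres and 11.6 and 7.55 FPKM in WT neurospheres, with each group spread over nearly the whole range (log2 fold change 0.06, adjusted p = 0.907, limma-trend).

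The neurosphere fit had little power. Its groups had 2 libraries as in cortex, but its replicates correlated at 0.967 and 0.976, against 0.995 and 0.996 in cortex. In simulated neurosphere data 4% of genes changed by 1 on the log2 scale were recovered, against 90% in simulated cortex data. The simulation changed few genes and took each gene's spread from its own libraries. Its shares therefore need not be the power of the fit to the deposited values. Mbp missed the threshold with a pseudocount of 0.1 FPKM, without WT 5 and without WT 6, and Bcas1 and Cnp turned to -0.34 and -0.13 without KO 8 and Cnp to -0.21 without WT 6. With the spread estimated over all 8 libraries, 5 members passed in neurospheres, namely Mbp higher and Olig2, Sox10, Pdgfra and Cspg4 lower, and 1670 genes passed in all, against 131 with the spread of the neurospheres alone. That fit gives a gene the same spread in both tissues, although neurosphere replicates agreed less. It can therefore understate the spread in neurospheres and call too many genes there. Rescaling moved the median gene to -0.01 (median ratio) and 0.02 (quantile) and split the calls into 52 higher and 78 lower or 71 higher and 88 lower, against 25 higher and 106 lower as deposited, with Mbp called each time and no member changing direction.

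**Figure D2:**
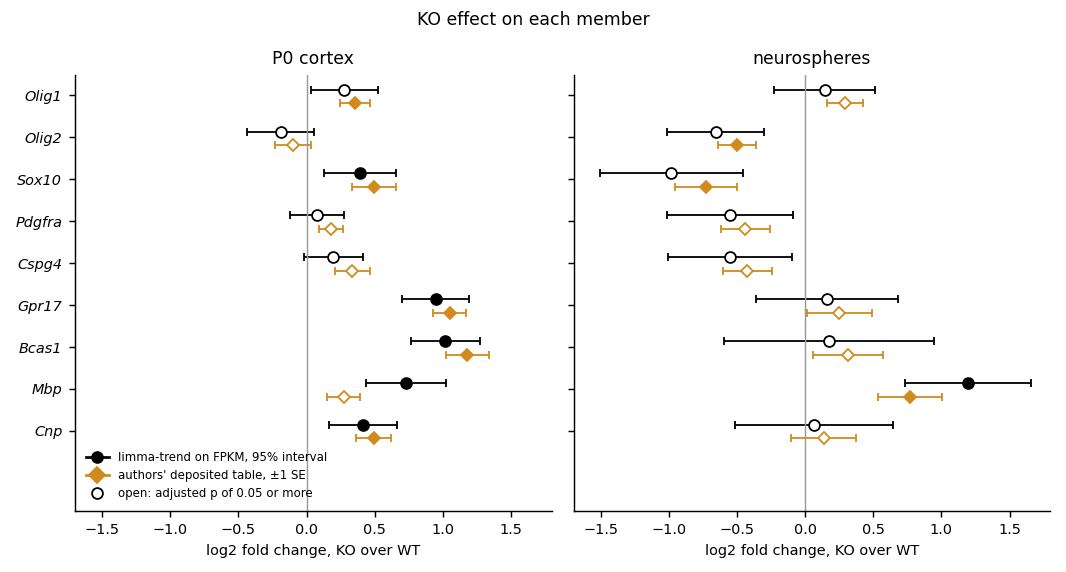
Log2 fold change of KO over WT (horizontal axis) for each lineage gene in cortex and in neurospheres, from limma-trend on FPKM (circles, 95% interval) and from the authors' deposited table (diamonds, 1 SE); filled symbols have an adjusted p under 0.05. Sox10 lies at 0.39 in cortex and at -0.98 in neurospheres.

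The authors' deposited table, which rests on counts from featureCounts and on DESeq2, called 5 members higher in KO cortex and 0 lower, where it called 6.35% of 14403 genes higher and 5.55% lower. These were Bcas1 (log2 fold change 1.18, adjusted p = 1.14e-11), Gpr17 (1.05, adjusted p = 2.39e-15), Sox10 (0.49, adjusted p = 0.0259), Cnp (0.49, adjusted p = 0.0024) and Olig1 (0.36, adjusted p = 0.0113) in the authors' deposited table. The FPKM fit and the authors' deposited table thus shared Bcas1, Gpr17, Sox10 and Cnp, and differed in Mbp and Olig1. In neurospheres the authors' deposited table called Mbp higher (log2 fold change 0.77, adjusted p = 0.0225) and Olig2 (-0.50, adjusted p = 0.012) and Sox10 (-0.73, adjusted p = 0.0288) lower, where it called 3.49% of 12510 genes higher and 2.3% lower. Pdgfra (-0.44, adjusted p = 0.138) and Cspg4 (-0.43, adjusted p = 0.165) were below 0 without passing in the authors' deposited table.

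Whether the KO effect differed between cortex and neurospheres was tested as the cortex log2 fold change minus the neurosphere one. None of the 9 members passed (0 of 9, limma-trend over all 8 libraries, with 5 at an unadjusted p under 0.05), against 0.977% of 10947 genes with a higher and 0.42% with a lower effect in cortex. Sox10 came nearest, with a difference of 1.37 (95% interval 0.75 to 1.99, adjusted p = 0.0507, limma-trend), and it passed under both rescalings and without WT 6, KO 7 or KO 8 of the neurospheres. Its KO libraries were both higher than WT in cortex and both lower than WT in neurospheres, as were those of Cspg4 (difference 0.75, adjusted p = 0.118, limma-trend). The difference was 0.85 for Bcas1, 0.79 for Gpr17, 0.63 for Pdgfra, 0.47 for Olig2, 0.35 for Cnp and 0.14 for Olig1, and Bcas1 passed without KO 8 of the neurospheres. Mbp alone had a negative difference, -0.46, with a 95% interval of -0.998 to 0.07 (adjusted p = 0.347, limma-trend).

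The levels also set the tissues apart, although the tables were normalized separately and no test was made across them. Pdgfra and Gpr17 were higher in every cortex library than in any neurosphere library. Olig1, Olig2, Sox10 and Cspg4 were lower in every cortex library than in any neurosphere library, whereas Bcas1, Mbp and Cnp overlapped between the tissues. Sox10 in the library KO 7, at 4.89 FPKM, lay next to the highest cortex value, 4.72 FPKM in KO 1, so these neighbours did not differ beyond the spread of their groups. In KO cortex Olig1 and Pdgfra were the most abundant members, at 31.8 ± 2.05 and 15.7 ± 0.462 FPKM. Cnp, Mbp and Gpr17 followed there at 11.6 ± 0.50, 11.5 ± 2.31 and 10.5 ± 1.67 FPKM, which did not differ beyond their spread (SD, n = 2). In WT cortex Olig1 and Pdgfra again led, at 26.2 ± 4.64 and 14.8 ± 1.55 FPKM, and Cspg4 (2.33 ± 0.145 FPKM) and Bcas1 (2.21 ± 0.0198 FPKM) were the least abundant (SD, n = 2).

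A ratio between members within a library is not changed by a single scaling factor per library, although quantile normalization can change it. The 8 ratios computed are descriptions without a test. Gpr17 over Pdgfra, the committed precursor over the precursor gene, was 0.608 to 0.731 in KO cortex and 0.30 to 0.37 in WT cortex, 2 times as high in KO. In neurospheres it was 0.501 to 0.754 in KO and 0.303 to 0.394 in WT, a fold of 1.78. Both KO libraries were above both WT libraries in each tissue. Bcas1 over Pdgfra did the same, with folds of 2.35 in cortex and 1.76 in neurospheres, as did Mbp over Pdgfra, with folds of 1.66 in cortex and 4.01 in neurospheres. In the authors' deposited table, made from counts, the log2 fold changes of Mbp and Pdgfra were 0.27 and 0.18 in cortex and 0.77 and -0.44 in neurospheres, which lie closer together than on the FPKM scale in both tissues. In neurospheres, where Gpr17, Bcas1 and Pdgfra did not pass on their own, these ratios combine a Pdgfra mean below WT with Gpr17 and Bcas1 means slightly above it. The implied fragments of Pdgfra per unit of FPKM were 0.879 times as many in KO as in WT cortex and 1.15 times in neurospheres. Scaled to library depth alone, they gave log2 fold changes of -0.12 in cortex and -0.42 in neurospheres, against 0.08 and -0.55 in FPKM. The effect of this on the ratios over Pdgfra was not tested.

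Cspg4 over Pdgfra, the ratio of the precursor's surface genes, was 0.176 to 0.183 in KO cortex and 0.153 to 0.162 in WT cortex, and its groups overlapped in neurospheres at 1.17 to 1.26 in KO and 1.02 to 1.42 in WT. Olig1 over Olig2 was 3.89 to 3.94 in KO cortex and 2.75 to 2.80 in WT cortex, and 2.59 to 2.81 in KO neurospheres and 1.504 to 1.574 in WT neurospheres. The libraries of a group agreed closely here, and the ratio was higher in KO in both tissues, by folds of 1.41 in cortex and 1.76 in neurospheres. Sox10 over Olig2 went apart between the tissues, at 0.531 to 0.56 in KO cortex and 0.33 to 0.337 in WT cortex but 0.0979 to 0.144 in KO neurospheres and 0.153 to 0.167 in WT neurospheres. Bcas1 over Gpr17 was 0.526 to 0.528 in KO cortex and 0.438 to 0.46 in WT cortex, and it overlapped in neurospheres at 1.09 to 2.94 in KO and 1.722 to 1.903 in WT. Mbp over Cnp overlapped in cortex, at 0.873 to 1.09 in KO and 0.618 to 0.937 in WT, and was 1.05 to 1.19 in KO neurospheres and 0.388 to 0.526 in WT neurospheres.

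**Figure D3:**
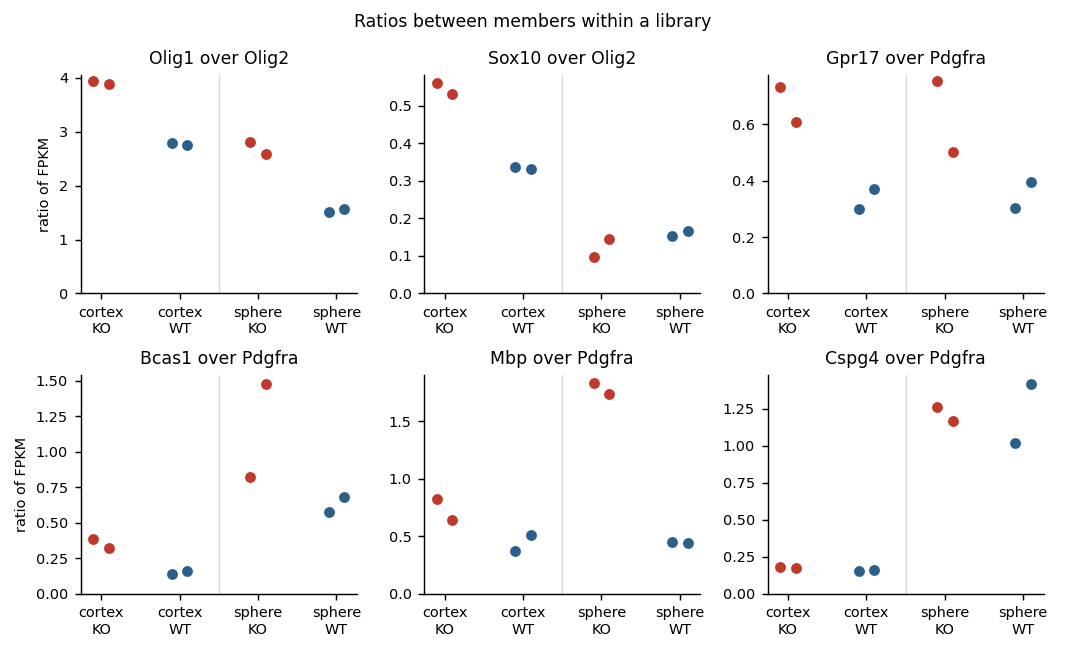
Ratio of FPKM between pairs of lineage genes (vertical axes) in each library of KO and WT cortex and KO and WT neurospheres; points are libraries. Olig1 over Olig2 is higher in KO than in WT in both tissues, and Sox10 over Olig2 is higher in KO cortex and lower in KO neurospheres.

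The other genes of the lineage that could be tested by limma-trend in cortex did not follow the members as a group. Many listed genes of the committed and myelin stages were outside the FPKM table, which leaves out genes silent in WT, so they were not tested. Of 14 further precursor genes 13 were tested, of which 0 were higher and 4 lower, beside 17.7% of all genes lower, with a median log2 fold change of -0.01. Tnr, the matrix protein tenascin R, had 3.25 and 3.39 FPKM in KO cortex and 5.94 and 5.40 FPKM in WT cortex (log2 fold change -0.63, adjusted p = 0.00316, limma-trend). The others were the protocadherin gene Pcdh15 (-0.45, adjusted p = 0.0117), Lhfpl3 (-0.32, adjusted p = 0.0255) and the matrilin gene Matn4 (-0.42, adjusted p = 0.0323), all by limma-trend. Tnr alone of these passed whichever library was left out, and Lhfpl3 and Matn4 did not pass under either rescaling. Of the 14 precursor genes the authors' deposited table called 1 higher, Vcan (log2 fold change 0.39), and 2 lower, Tnr and Pcdh15. Over its genes 6.35% were higher and 5.55% lower. Vcan was also higher by limma-trend after median-ratio rescaling, but not after quantile normalization. Of 13 further genes of committed and newly formed cells 3 were tested, 0 passed by limma-trend, and 1 had an unadjusted p under 0.05. The authors' deposited table, which lists all 13 in cortex, called 3 of them higher: Lims2 (log2 fold change 1.05), Enpp6, an early marker of newly formed oligodendrocytes (0.54), and the kinase gene Fyn (0.30). Lims2 overlaps Gpr17 on the opposite strand, so its call may not be separate from that of Gpr17. Enpp6 rested on a mean normalized count of only 17.34.

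Of 19 further myelin genes 10 were tested in cortex, with 3 higher and 3 lower and a median log2 fold change of 0.12. Over all genes tested 4.8% were higher and 17.7% lower. The claudin gene Cldn11 (log2 fold change 0.40, adjusted p = 0.0284) and the lipocalin gene Apod (0.28, adjusted p = 0.0442) were higher by limma-trend. Lower were the tetraspanin gene Tspan2 (-0.44, adjusted p = 0.016), Gpr37, which encodes a receptor that holds back myelination (-0.40, adjusted p = 0.0188), and the pterin reductase gene Qdpr (-0.22, adjusted p = 0.0403), by limma-trend. None of these 5 named genes passed with every library left out in turn, and Qdpr passed under neither rescaling and Gpr37 only under the median ratio. The authors' deposited table lists 18 of the myelin genes in cortex and called 3 higher and 2 lower, beside 6.35% and 5.55% of its genes. Cldn11 (log2 fold change 0.47) and Apod (0.35) were among the higher ones. Lower were Ermn (-0.85), which was outside the cortex FPKM table, and Tspan2 (-0.43).

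Of 18 genes for ligands and receptors that act on the lineage, 14 were tested in cortex, with 1 higher and 1 lower and a median of -0.05, beside 4.8% of all genes higher and 17.7% lower. The authors' deposited table called 5 of the 18 higher and 0 lower, beside 6.35% and 5.55% of its genes: Fgfr1 (log2 fold change 0.81), the neuregulin receptor gene Erbb3 (0.80), Pdgfrb (0.31), Cxcl12 (0.30) and Igf1r (0.30). The receptor gene Fgfr1 had 27.5 and 20.1 FPKM in KO cortex and 14.6 and 13.2 FPKM in WT cortex (log2 fold change 0.71, adjusted p = 0.00671, limma-trend). The chemokine receptor gene Cxcr4 had 10.2 and 9.76 FPKM in KO cortex and 13.7 and 12.8 FPKM in WT cortex (-0.37, adjusted p = 0.0129, limma-trend), and missed the threshold without KO 1 or without KO 2. Under each rescaling 4 of these genes were higher, with Cxcl12, Igf1r and Pdgfrb added. Of 8 genes that restrain differentiation 1 was higher and 0 lower, with a median of -0.07. Notch1, the receptor through which neighbouring cells hold precursors back, had 8.22 and 7.76 FPKM in KO cortex and 4.75 and 4.76 FPKM in WT cortex (log2 fold change 0.64, adjusted p = 0.00211, limma-trend). With the spread estimated over all 8 libraries, 0 genes of these 5 lists passed in cortex by limma-trend.

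**Figure D4:**
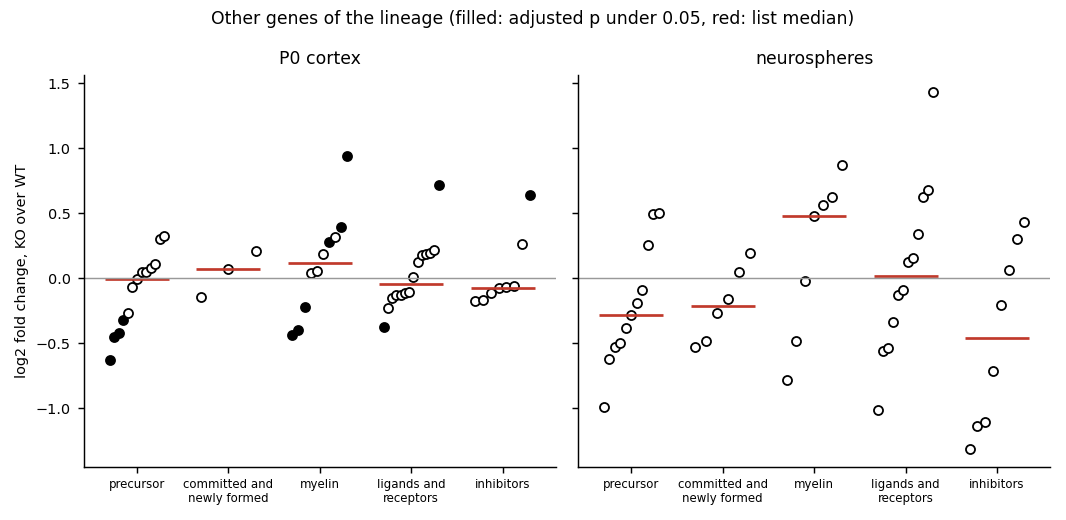
Log2 fold change of KO over WT (vertical axis) for each tested gene of 5 further lineage lists in cortex and in neurospheres; filled points have an adjusted p under 0.05 by limma-trend, and red bars are list medians. In cortex 4 precursor genes are lower, and the myelin list holds 3 higher and 3 lower genes.

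In neurospheres 0 genes of these 5 lists passed by limma-trend, out of 11 precursor, 6 committed, 7 myelin, 12 ligand and receptor and 8 inhibitor genes tested. An unadjusted p under 0.05 was found for 5, 0, 5, 6 and 5 of them in that order, and the authors' deposited table called 6 genes higher and 2 lower over the lists. Over all its neurosphere genes that table called 3.49% higher and 2.3% lower. The medians were -0.28 for precursor, -0.21 for committed, 0.48 for myelin, 0.02 for ligand and receptor and -0.46 for inhibitor genes, beside -0.15 over all genes. In the authors' deposited table Sox8, the partner of Sox10 in the lineage, was lower in KO neurospheres (log2 fold change -0.84, adjusted p = 0.00552), and Notch1 was higher there (0.54, adjusted p = 0.00887) as in KO cortex (0.79, adjusted p = 5.75e-15).

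Markers of other cells moved in both tissues, and their part in the members' values was not tested. Limma-trend called 4.8% of all genes higher and 17.7% lower in cortex. In KO cortex 5 of 10 astrocyte markers tested were higher and 2 lower, with sums of 839.4 to 917.5 FPKM in KO and 572.2 to 588.1 FPKM in WT. Of 9 radial glia markers 5 were higher and 1 lower, with sums of 1479 to 1584 FPKM in KO and 1095 to 1197 FPKM in WT. Microglia markers were higher in 6 and lower in 1 of 11, with sums of 78.7 to 89.3 FPKM in KO and 63.7 to 67.4 FPKM in WT. Neuron markers were higher in 2 and lower in 1 of 11, and interneuron markers lower in 1 and higher in 0 of 10. Of 5 Schwann cell markers only Pmp22 was tested in cortex and did not pass, and the Schwann cell gene Prx was outside both FPKM tables.

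In KO neurospheres 7 of 10 interneuron markers were higher and 0 lower, with sums of 1357 to 1366 FPKM in KO and 816.1 to 1012 FPKM in WT. Limma-trend called 0.219% of all genes higher and 0.929% lower in neurospheres. Astrocyte markers were lower in 1 and higher in 0 of 10, with sums of 426.4 to 548.1 FPKM in KO and 586.9 to 681.5 FPKM in WT. Radial glia markers were lower in 1 and higher in 0 of 9, with sums of 867.1 to 1052 FPKM in KO and 1320 to 1647 FPKM in WT. Neuron markers were higher in 1 and lower in 0 of 11. Of 12 microglia markers only Cd68 was tested, and of 5 Schwann cell markers only Pmp22 and Egr2, and none of these passed. The Pmp22 and Egr2 levels summed to 6.25 to 6.44 FPKM in KO neurospheres and 12.8 to 19.6 FPKM in WT neurospheres.

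The genes whose centred profile over the 8 libraries lay nearest to a member were sought among 7393 to 7394 genes with at least 5 FPKM in both tables, as a description over libraries that share tissues and scaling. For Olig2 they were Cdkn2aipnl, Cox7a2l and Pisd, at root mean square differences of 0.0555, 0.059 and 0.0596 on the log2 scale, beside 0.262 for the spread of Olig2 itself. Taz, Tax1bp3 and Eif2ak3 were nearest to Pdgfra, at 0.0234, 0.0495 and 0.0497, beside a spread of 0.219. Bcas1 had no near match, since Malat1, Apoe and Zfp219 lay at 0.203, 0.203 and 0.259, beside a spread of 0.451. The nearest to Mbp were Sez6, Scrt1 and Armcx4, at 0.216, 0.225 and 0.227, beside a spread of 0.511.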

How the data were processed

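RNA-seq values of 8 libraries were used, 2 KO and 2 WT each from P0 cortex and from neurospheres. The submitters' processing notes name mm9 and, for the authors' work, Bowtie, Cufflinks, DESeq2, featureCounts, STAR and Trim Galore, without versions. From Cufflinks, the authors deposited FPKM for each library with its interval bounds. The authors also deposited DESeq2 tables with a signal column (the mean normalized count), a log2 fold change, its SE and a p-value with its adjusted value, shown here as theirs. The ratio or fold columns and scores of the deposited tables were not used.

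The FPKM tables listed 11536 (neurosphere) and 12106 (cortex) rows, and their lowest WT value was 0.999 FPKM while KO values reached lower, so genes silent in WT are outside them. Date-like and repeated symbols were removed, leaving 11496 and 12056 genes. Genes whose mean reached 1 FPKM were fitted per tissue with limma-trend (limma 3.58.1, R 4.3.3, two-sided) on log2(FPKM + 1), with Benjamini-Hochberg adjustment over all genes and a threshold of 0.05; such fold changes understate changes of low genes. The difference between tissues was a contrast over all 8 libraries. In simulated data with few genes changed, the cortex fit recovered 90% of genes changed by 1 on the log2 scale and the neurosphere fit 4%. Replicates were read as separate brains from the design text; otherwise p-values would measure technical spread only. Depth was estimated from the interval widths, read as 2 SD on each side, in genes with a single annotated transcript. Overlapping genes were taken from GENCODE, and promoters from RefSeq, which held 4 of the 9 members. The alternatives were another pseudocount, no filter, 2 rescalings, the spread over all libraries, a replicate block and leaving out each library.

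The members, the gene lists and the tests were chosen with earlier results of these data known. All 9 members are named. Genes of other lists are named where their adjusted p is under 0.05, at most 6 per list and tissue, except that some are not reported here; genes named from the authors' table alone and the rescaled calls were named after their values were seen. The nearest genes are the 3 with the smallest root mean square difference.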

Additional observations from a re-analysis of the deposited data

Results flagged for a closer look

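Sox10 stood out because its KO libraries were both above the WT libraries in cortex (4.72 and 4.14 FPKM in KO, 3.55 and 2.76 FPKM in WT) and both below them in neurospheres (4.89 and 7.54 FPKM in KO, 13.5 and 12.5 FPKM in WT). The difference of the log2 fold changes, cortex minus neurospheres, was 1.37 (adjusted p = 0.0507, limma-trend), just outside the threshold of 0.05. Over all genes tested in cortex, 15.5% had both KO libraries above both WT libraries. In neurospheres 38.3% had both KO libraries below both WT libraries. The share of genes with both arrangements was not computed.

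Cspg4 showed the same opposite arrangement with smaller steps. Its values were 2.92 and 2.70 FPKM in KO cortex and 2.43 and 2.23 FPKM in WT cortex, and 6.95 and 8.04 FPKM in KO neurospheres and 10.2 and 12.8 FPKM in WT neurospheres. Its difference was 0.75 (adjusted p = 0.118, limma-trend), which did not pass.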

How the results depend on the processing

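Of 279 values of single genes under an alternative, 245 kept direction and side of the threshold, 15 newly passed, 14 no longer passed and 5 changed direction. Those 5 came from leaving out a library, where the log2 value ran from -0.21 (without WT 6; -0.13 without KO 8) to 0.34 for Cnp in neurospheres, from -0.34 (without KO 8) to 0.68 for Bcas1 in neurospheres, from -0.024 (without WT 2) to 0.18 for Pdgfra in cortex, and from -0.039 (without WT 2 of the cortex) to 0.31 for the tissue difference of Olig1. With a pseudocount of 0.1 FPKM the neurosphere calls fell to 65 genes and 0 members. Under each rescaling 1 member, Sox10, passed the test of the tissue difference. With the spread over all 8 libraries, 1670 genes and 5 members passed in neurospheres and 6 genes and 0 members in cortex. That setting takes the spread as equal in both tissues, although neurosphere replicates agreed less. Leaving out each library in turn gave 0 to 671 genes and 0 to 2 members in neurospheres, 820 to 1895 genes and 3 to 6 members in cortex, and 0 to 2 members for the difference. The lowest neurosphere count, 0, came without WT 5 and without WT 6, and the highest without KO 8 (454 without KO 7). A group left with 1 library was taken to vary like the others. The cause of these shifts was not tested. In cortex the same replicate numbers did not deviate together (r = -0.0955 between the deviations of WT 1 and KO 1). With 2 libraries a group this cannot exclude that libraries of the same number were paired. A fit with the replicate number as a block called 2527 genes and 6 members. Neurosphere groups share no number, so no block could be fitted there. Precision is limited by 2 libraries a group, and total counts were not used here.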
